A study of Homo sapiens with 9 samples.

Results

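The genes described here form the redox and NRF2 target module of OVCA433 cells, 41 gene symbols listed by name. This list and the other gene lists below were chosen with earlier results of these data known. Their shares beside those of all tested genes are therefore descriptive. The module comprises antioxidant enzymes, the glutathione and thioredoxin systems, the transcription factor NRF2 (gene NFE2L2), its inhibitor KEAP1 and targets of NRF2. It also holds the ferredoxin reductase FDXR, a mitochondrial protein that has been linked to MPZL3. The symbols matched 42 of the 58676 genes in the count table, since SOD2 was listed under 2 identifiers. Of these, 40 had enough reads to be tested. GPX2 and the second SOD2 entry did not pass the filter on low counts. OVCA433 is an established line of ovarian serous adenocarcinoma. The cells carried a lentiviral control vector, shRNA hairpin #1 against MPZL3 or shRNA hairpin #3 against MPZL3, with 3 libraries (A, B and C) in each of the 3 groups. All 9 libraries came from transduced cells, and the study describes the control both as an empty vector and as a scrambled hairpin, so whether it carried a hairpin is uncertain. The groups were compared to ask how the redox genes stood after loss of MPZL3, a membrane protein that has been placed in mitochondria.

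NRF2 is the main transcriptional regulator of the response to oxidants and electrophiles. KEAP1 marks it for degradation until reactive molecules modify KEAP1, so the activity of NRF2 is set mostly at the protein level, and its mRNA need not move. Its targets bear antioxidant response elements. They supply glutathione, reduce thioredoxin and quinones, store iron as ferritin and make NADPH through the pentose phosphate pathway. FDXR passes electrons from NADPH to the mitochondrial ferredoxins, which serve iron-sulfur cluster assembly and steroid synthesis.

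Library totals were 16850854 to 23890191 counts, and within groups the libraries correlated at 0.985 to 0.992 (Pearson, log2 CPM, across genes that are not independent). The targeted gene, MPZL3, had 322 to 440 counts in the control libraries and 18 to 42 in the knockdown libraries. It did not differ detectably between the hairpins (log2 difference -0.25, SE 0.26, edgeR adjusted p = 0.614). Of 8 serous ovarian carcinoma markers, WT1 had no count in any library and MUC16 had none in the knockdown libraries. Their summed level was 9965 to 12049 CPM in control, 5219 to 6669 CPM with hairpin #1 and 5157 to 5781 CPM with hairpin #3. The summed level of 8 fibroblast markers was 18.7 to 22.1 CPM in control, 109.5 to 447 CPM with hairpin #1 and 503 to 871 CPM with hairpin #3, with DCN at 0 in all libraries. Leukocyte markers summed to at most 1.35 CPM, and endothelial markers to 0.547 to 1.02 CPM in control and 4.16 to 7.50 CPM in the knockdown groups. The part of these marker shifts in the results below was not tested, and in bulk RNA a smaller number of cells of a type cannot be told apart from less RNA per cell.

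Redox genes responded differently to the 2 hairpins. With hairpin #1, 20 of 40 members changed against control, 16 higher and 4 lower, where 37.8% of all 15975 tested genes changed (18.0% higher, 19.7% lower). A change here is an adjusted p under 0.05 by edgeR's quasi-likelihood test. With hairpin #3, 17 members changed, 7 higher and 10 lower, against a background of 34.7% (16.6% higher, 18.1% lower). The direct comparison of the hairpins called 20 members, of which 17 were lower and 3 higher with hairpin #3. The background there was 11.6% (5.30% lower, 6.33% higher), so that 42.5% of members were lower with hairpin #3 than with hairpin #1. The median log2 fold change of the members was 0.27 with hairpin #1, -0.029 with hairpin #3 and -0.27 between them, each beside a median within 0.0087 of 0 for all tested genes.

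With both hairpins as 1 knockdown arm of 6 libraries, 7 members changed, 5 higher (FTL, GPX8, SOD2, TXNRD1 and TXNRD2) and 2 lower (GSR and PRDX2). This share of 17.5% lay below the background of 33.0% (15.9% higher, 17.0% lower). The count rose to 11 without hairpin #3 replicate A, and to 18 in a model that kept the hairpins apart while averaging them. The share of all tested genes called was not computed for these alternatives. Whether the members lie below the background there is therefore not known. The 7 members named above also passed with each hairpin on its own. PGD passed in opposite directions, 12 members passed with hairpin #1 only, 9 with hairpin #3 only and 11 with neither. The share of all tested genes with each of these patterns was not computed, so this split only describes the members. With a log2 change of at least 1 required as well, 3 members remained in the pooled comparison (background 14.7%), 8 with hairpin #1 (16.3%), 3 with hairpin #3 (15.3%) and 7 between the hairpins (3.93%). The members together took 0.663% to 0.762% of the counts in control, 1.00% to 1.49% with hairpin #1 and 0.784% to 0.866% with hairpin #3. These shares depend heavily on FTL, which alone held 43231 of 162352 member counts in control replicate C and 144281 of 356651 in hairpin #1 replicate C. The 2 comparisons with control use the same 3 control libraries.

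**Figure D1:**
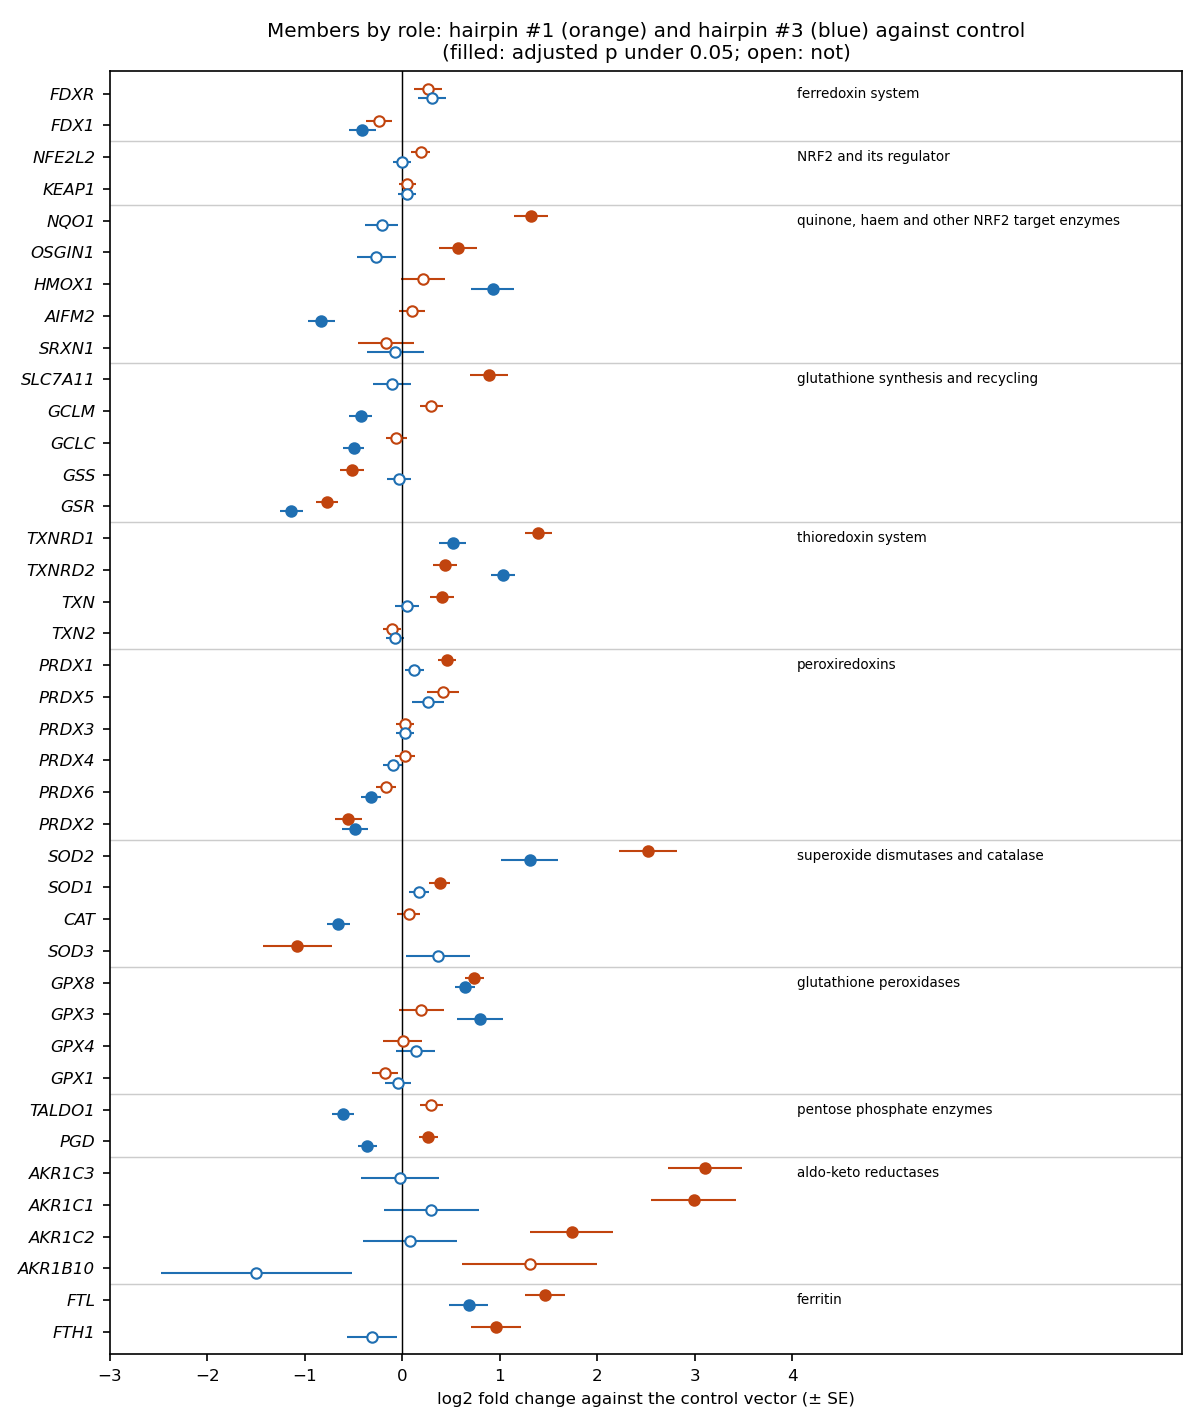
Log2 fold change (x axis, ± SE) of the 40 tested members against the control vector, for hairpin #1 (orange) and hairpin #3 (blue), ordered by role, with filled points at an adjusted p under 0.05. AKR1C1, AKR1C2, AKR1C3, NQO1, FTH1 and SLC7A11 have a filled orange point right of 0 and an open blue one, whereas GCLC, AIFM2, CAT and TALDO1 have a filled blue point left of 0 and an open orange one.

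The transcripts of the regulators themselves did not pass edgeR's test in the model without a block in any of the 4 comparisons. NFE2L2, which encodes NRF2, was at 98.6, 111 and 109 CPM in the control libraries, 118, 133 and 113 CPM in those with hairpin #1 and 102, 109 and 108 CPM in those with hairpin #3. The hairpin #1 libraries lay just above the others, but the change did not pass the test (log2 fold change 0.19, SE 0.094, adjusted p = 0.137 by edgeR), and with hairpin #3 the log2 fold change was -0.0015 (adjusted p = 0.992). KEAP1 stood at 63.5, 64.1 and 68.7 CPM in the control libraries, 67.0, 70.4 and 66.2 CPM in those with hairpin #1 and 64.4, 66.2 and 72.5 CPM in those with hairpin #3. All 9 libraries of KEAP1 overlapped, with a log2 fold change of 0.05 over both hairpins (SE 0.076, adjusted p = 0.657). NFE2L2 overlaps other annotated genes, AGPS among them, on the chromosome, and the libraries carried no strand, so part of its count could come from these.

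FDXR did not pass the test in any comparison in the model without a block. With the replicate letter as a block, it passed edgeR's test in all comparisons with control. Its log2 fold change was then 0.29 pooled (adjusted p = 0.0209), 0.27 with hairpin #1 (adjusted p = 0.0161) and 0.31 with hairpin #3 (adjusted p = 0.00698). Its levels were 38.3, 47.4 and 55.7 CPM in the control libraries, 47.6, 56.4 and 65.9 CPM in those with hairpin #1 and 54.9, 58.9 and 60.2 CPM in those with hairpin #3, and the groups overlapped. Without a block, the log2 fold change was 0.27 with hairpin #1 (SE 0.14, edgeR adjusted p = 0.165) and 0.30 with hairpin #3 (SE 0.14, adjusted p = 0.126). In the pooled comparison it was 0.28 (adjusted p = 0.115). In the model without a block, the outcome also rested on single libraries. Without control replicate C, the highest control, the pooled change was 0.42 (adjusted p = 0.0472) and the hairpin #3 change 0.44 (adjusted p = 0.0434). Without hairpin #1 replicate A, the hairpin #1 change was 0.38 (adjusted p = 0.0497). FDX1, the ferredoxin that FDXR reduces, was lower with hairpin #3 (log2 fold change -0.41, SE 0.14, adjusted p = 0.0323 by edgeR), but the 50 neighbouring genes on chromosome 11 had a median of -0.26 in the same comparison. Its call was lost without control replicate A/B/C, or hairpin #3 replicate B/C (adjusted p = 0.0538 to 0.149), and in the pooled comparison it was made without hairpin #1 replicate A, or hairpin #3 replicate A (adjusted p = 0.0277 to 0.0497).

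NQO1, a quinone reductase and a standard readout of NRF2 activity, separated the hairpins. It lay at 333, 319.6 and 399 CPM in the control libraries, 626, 920.1 and 1076 CPM in those with hairpin #1 and 319, 259 and 329 CPM in those with hairpin #3. Each hairpin #1 library exceeded all 6 others, while control and hairpin #3 overlapped. NQO1 rose 2.49-fold with hairpin #1 (log2 fold change 1.32, SE 0.18, adjusted p = 5.1e-05 by edgeR), whereas the log2 fold change with hairpin #3 was -0.21 (adjusted p = 0.379). The hairpins differed by -1.53 on the log2 scale (adjusted p = 0.000114). The pooled change of NQO1, 0.75, did not pass (adjusted p = 0.206).

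The aldo-keto reductases AKR1C1, AKR1C2 and AKR1C3, which reduce steroids and reactive carbonyls, rose with hairpin #1, AKR1C3 and AKR1C1 more than any other member. AKR1C3 was at 4.75, 6.12 and 6.79 CPM in the control libraries, 25.4, 70.3 and 56.3 CPM in those with hairpin #1 and 2.59, 6.36 and 8.19 CPM in those with hairpin #3. AKR1C1 was lower throughout, at 2.32, 1.34 and 2.01 CPM in the control libraries, 7.38, 23.9 and 14.1 CPM in those with hairpin #1 and 0.942, 2.91 and 3.04 CPM in those with hairpin #3. In both genes every hairpin #1 library was above all control and hairpin #3 libraries, and replicate A was the lowest of the hairpin #1 libraries. AKR1C3 rose 8.60-fold (log2 fold change 3.10, SE 0.38, adjusted p = 2.36e-05 by edgeR) and AKR1C1 7.94-fold (log2 fold change 2.99, SE 0.43, adjusted p = 0.000109). With hairpin #3 their log2 fold changes were -0.022 (adjusted p = 0.974) and 0.30 (adjusted p = 0.685). The pooled changes, 2.20 for AKR1C1 (adjusted p = 0.0662) and 2.26 for AKR1C3 (adjusted p = 0.0770), did not pass. AKR1C1 passed without hairpin #3 replicate A/B/C (adjusted p = 0.0206 to 0.0485), and AKR1C3 without hairpin #3 replicate A/B (adjusted p = 0.0257 to 0.0478).

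AKR1C2 was near the limit of detection, at 0.678, 0.448 and 0.573 CPM in the control libraries, 0.841, 2.80 and 2.10 CPM in those with hairpin #1 and 0.588, 0.658 and 0.552 CPM in those with hairpin #3, and rose with hairpin #1 (log2 fold change 1.74, SE 0.43, adjusted p = 0.00553 by edgeR). Its difference between the hairpins (-1.66, adjusted p = 0.0228) was lost without hairpin #1 replicate B/C, or hairpin #3 replicate A/B/C (adjusted p = 0.0532 to 0.107). These 3 neighbours on chromosome 10 overlap and are close in sequence, so reads can be split between them. Summed to 1 feature, they reached a log2 value of 3.02 against control with hairpin #1 (SE 0.37, edgeR adjusted p = 2.45e-05) and 0.06 with hairpin #3 (SE 0.38, adjusted p = 0.923). AKR1B10 was at 0.678, 0.0498 and 0.0478 CPM in the control libraries, 0.514, 0.610 and 0.815 CPM in those with hairpin #1 and 0.118, 0.0549 and 0.0921 CPM in those with hairpin #3. It was not called with either hairpin, but without control replicate A, the control with most of its counts, its hairpin #1 change was 3.58 (adjusted p = 0.00189), and its lower level with hairpin #3 than with hairpin #1 passed without control replicate A/B/C (adjusted p = 0.00653 to 0.0458).

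**Figure D2:**
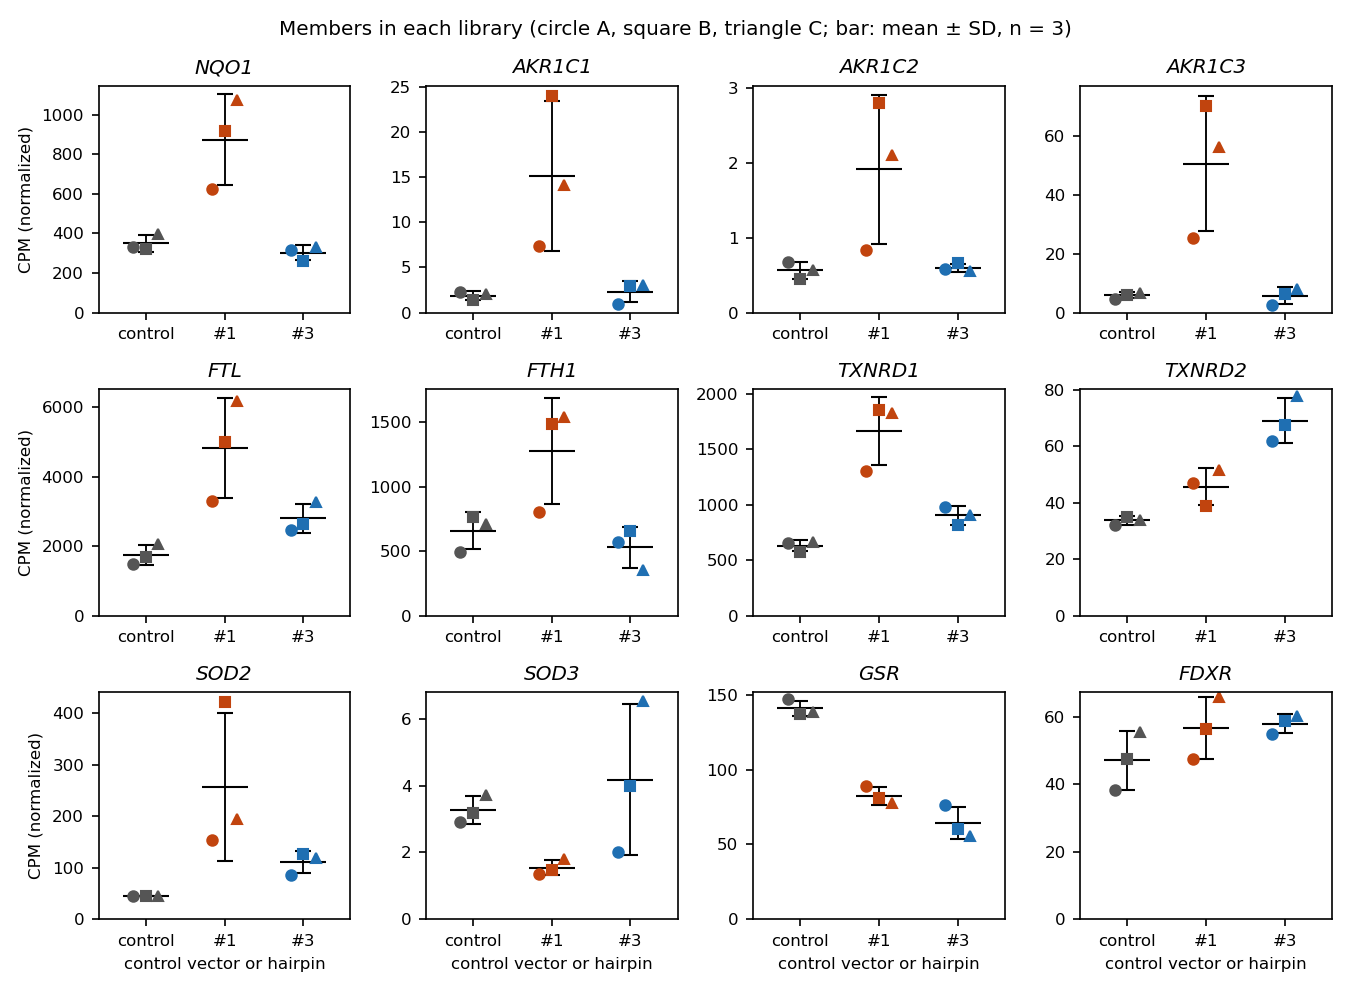
Normalized CPM (y axis, linear from 0) of 12 members in each library of the control vector, hairpin #1 and hairpin #3, with the mean ± SD (n = 3). NQO1, AKR1C1, AKR1C3, FTL, FTH1 and TXNRD1 are highest in the 3 hairpin #1 libraries, GSR is lower in all 6 knockdown libraries, and FDXR overlaps between the groups.

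The ferritin subunits store iron in a shell of light and heavy chains. FTL, the light chain and the most abundant member by count, was at 1493, 1684 and 2066 CPM in the control libraries, 3309, 5007 and 6186 CPM in those with hairpin #1 and 2484, 2648 and 3273 CPM in those with hairpin #3. All knockdown libraries exceeded all controls, and all hairpin #1 libraries exceeded those of hairpin #3. FTL rose 2.77-fold with hairpin #1 (log2 fold change 1.47, SE 0.21, adjusted p = 7.83e-05 by edgeR) and 1.60-fold with hairpin #3 (log2 fold change 0.68, SE 0.20, adjusted p = 0.0183). The hairpin #3 call was lost without control replicate A/B, or hairpin #3 replicate C (adjusted p = 0.0637 to 0.0686), and the difference between the hairpins (-0.79, adjusted p = 0.0227) without hairpin #1 replicate B/C, or hairpin #3 replicate A/B (adjusted p = 0.0617 to 0.0982). FTH1, the heavy chain, was at 495, 765 and 713 CPM in the control libraries, 807, 1489 and 1540.0 CPM in those with hairpin #1 and 575, 659 and 355 CPM in those with hairpin #3. It was higher with hairpin #1 (log2 fold change 0.96, SE 0.26, adjusted p = 0.0102), which was lost without hairpin #1 replicate B (adjusted p = 0.0502), and not detectably changed with hairpin #3 (log2 fold change -0.31, adjusted p = 0.389). Both genes have processed pseudogenes, 16 and 25 of which are listed. Their counts came to 0.0298% and 0.373% of the gene's own.

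In the thioredoxin system, both reductases rose with both hairpins, but in opposite order. TXNRD1, the cytosolic thioredoxin reductase, lay at 654, 579 and 666 CPM in the control libraries, 1309.5, 1858 and 1826 CPM in those with hairpin #1 and 984, 817 and 913 CPM in those with hairpin #3, and the 3 groups did not overlap. It rose 2.63-fold with hairpin #1 (log2 fold change 1.39, SE 0.14, adjusted p = 3.97e-06 by edgeR) and 1.43-fold with hairpin #3 (log2 fold change 0.51, SE 0.14, adjusted p = 0.0105), where its neighbours on chromosome 12 had a median of 0.39. Without control replicate B, the hairpin #3 call and the pooled call were lost (adjusted p = 0.0601 and 0.0573). TXNRD2, the mitochondrial reductase, was at 32.2, 35.1 and 34.1 CPM in the control libraries, 46.9, 38.8 and 51.6 CPM in those with hairpin #1 and 62.0, 67.5 and 77.9 CPM in those with hairpin #3. Its 3 groups did not overlap either, with hairpin #3 highest. It rose by 0.44 with hairpin #1 (SE 0.12, adjusted p = 0.0121), which was lost without hairpin #1 replicate C (adjusted p = 0.0604), and by 1.03 with hairpin #3 (SE 0.12, adjusted p = 2.02e-05). TXNRD2 overlaps other annotated genes, and the libraries carried no strand, so its count is uncertain.

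Of the thioredoxins that these enzymes reduce, TXN rose with hairpin #1 from 298 ± 15.3 to 396 ± 44.9 CPM (SD, n = 3, log2 fold change 0.41, SE 0.12, adjusted p = 0.0172 by edgeR), against a neighbour median of 0.20, and was at 308 ± 43.7 CPM with hairpin #3. The hairpin #1 call was lost without control replicate A/C, or hairpin #1 replicate C (adjusted p = 0.0502 to 0.0806). The mitochondrial TXN2 was not called in any comparison, and its group means were 47.2 ± 2.64, 43.8 ± 1.62 and 44.7 ± 3.13 CPM.

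In glutathione synthesis and recycling, GSR fell with both hairpins. GSR, glutathione reductase, regenerates glutathione with NADPH. It was at 147, 138 and 138 CPM in the control libraries, 89.1, 80.8 and 77.6 CPM in those with hairpin #1 and 76.3, 60.0 and 55.9 CPM in those with hairpin #3, and every knockdown library was lower than every control. It fell with hairpin #1 (log2 fold change -0.77, SE 0.12, adjusted p = 0.000140 by edgeR) and with hairpin #3 (log2 fold change -1.14, SE 0.12, adjusted p = 5.35e-06). Its neighbours on chromosome 8 had medians of -0.36 and -0.24, so the remaining change was over 0.5 of the whole in both. The difference between the hairpins was -0.37 (adjusted p = 0.0604) and passed without hairpin #3 replicate A (adjusted p = 0.00733).

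The genes that make glutathione were split. SLC7A11, the cystine transporter that feeds synthesis, was at 84.5, 51.7 and 58.8 CPM in the control libraries, 87.5, 153 and 121 CPM in those with hairpin #1 and 60.7, 57.6 and 63.2 CPM in those with hairpin #3. All 3 hairpin #1 libraries lay above control, replicate A only just. It rose with hairpin #1 (log2 fold change 0.89, SE 0.19, adjusted p = 0.00268 by edgeR), where its neighbours on chromosome 4 had a median of -0.33, and differed between the hairpins by -0.99 (adjusted p = 0.00503). GCLC and GCLM, the catalytic and modifier subunits of glutamate-cysteine ligase, which sets the rate of synthesis, were lower with hairpin #3. GCLC averaged 48.1 ± 4.72 CPM (SD, n = 3) in the control libraries, 46.1 ± 2.75 in those of hairpin #1 and 34.1 ± 3.12 in those of hairpin #3 (log2 fold change -0.50, SE 0.11, adjusted p = 0.00277). GCLM was at 117 ± 11.6, 143 ± 12.9 and 86.8 ± 12.6 CPM, lower with hairpin #3 (log2 fold change -0.43, SE 0.12, adjusted p = 0.0137), though not without control replicate A, or hairpin #3 replicate B/C (adjusted p = 0.0508 to 0.0734). With hairpin #1 its log2 fold change was 0.30 (adjusted p = 0.0672), and it passed without control replicate A, or hairpin #3 replicate A (adjusted p = 0.0373 to 0.0443). Between the hairpins, GCLM differed by -0.72 (adjusted p = 0.00159) and GCLC by -0.44 (adjusted p = 0.0187), the latter not without hairpin #1 replicate B, or hairpin #3 replicate B/C (adjusted p = 0.0685 to 0.0923).

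GSS, glutathione synthetase, was lower with hairpin #1 (log2 fold change -0.52, SE 0.12, adjusted p = 0.00463 by edgeR), at 53.7 ± 4.58 against 76.8 ± 8.81 CPM in control and 74.9 ± 10.2 with hairpin #3. It is on chromosome 20, where its neighbours had a median of -0.32 with hairpin #1 and 0.32 between the hairpins, over 0.5 of its own values. Its difference between the hairpins (0.48, adjusted p = 0.0220) was lost without hairpin #1 replicate A/B, or hairpin #3 replicate B/C (adjusted p = 0.0553 to 0.112).

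Among the other NRF2 target enzymes, HMOX1, haem oxygenase 1, was higher than control with hairpin #3. It was at 3.68, 5.18 and 5.54 CPM in the control libraries, 4.07, 5.55 and 7.03 CPM in those with hairpin #1 and 10.4, 9.38 and 7.73 CPM in those with hairpin #3. All hairpin #3 libraries were above all others, while control and hairpin #1 overlapped. It rose 1.90-fold with hairpin #3 (log2 fold change 0.93, SE 0.22, adjusted p = 0.00518 by edgeR), and with hairpin #1 its log2 fold change was 0.21 (adjusted p = 0.503). The difference between the hairpins, 0.72, missed the threshold (adjusted p = 0.0514) and passed without control replicate A, or hairpin #1 replicate C (adjusted p = 0.0283 to 0.0351). In the pooled comparison HMOX1 did not pass (adjusted p = 0.114), but it did without hairpin #1 replicate A (adjusted p = 0.0294). OSGIN1, an oxidative stress-induced growth inhibitor, was at 8.91 ± 1.97, 13.2 ± 0.954 and 7.43 ± 2.04 CPM. Its rise with hairpin #1 (log2 fold change 0.57, SE 0.20, adjusted p = 0.0358) was lost without control replicate B/C, or hairpin #1 replicate B/C (adjusted p = 0.0871 to 0.142), and its difference between the hairpins (-0.84, adjusted p = 0.0156) without hairpin #1 replicate B/C, or hairpin #3 replicate B/C (adjusted p = 0.0533 to 0.0874).

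AIFM2 (FSP1), which reduces ubiquinone and protects against ferroptosis, was at 28.1, 27.5 and 30.0 CPM in the control libraries, 27.7, 29.2 and 34.9 CPM in those with hairpin #1 and 19.1, 13.6 and 15.5 CPM in those with hairpin #3. It fell with hairpin #3 (log2 fold change -0.83, SE 0.14, adjusted p = 0.000340 by edgeR), with no overlap, and overlapped control with hairpin #1 (0.099, adjusted p = 0.602). It overlaps H2AFY2, so part of its reads could belong to that gene. SRXN1, sulfiredoxin, had 2.76 ± 0.842, 2.46 ± 0.332 and 2.65 ± 0.852 CPM and was not called.

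The superoxide dismutases moved in different directions. SOD2, the mitochondrial enzyme and a target of NF-kB as well as of other factors, was at 44.7, 44.5 and 45.1 CPM in the control libraries, 153, 421 and 195 CPM in those with hairpin #1 and 85.7, 127 and 119 CPM in those with hairpin #3. Control libraries agreed within 1 CPM, all knockdown libraries were higher, and replicate B of hairpin #1 stood far above its group. SOD2 rose 5.73-fold with hairpin #1 (log2 fold change 2.52, SE 0.30, adjusted p = 1.81e-05 by edgeR) and 2.47-fold with hairpin #3 (log2 fold change 1.31, SE 0.29, adjusted p = 0.00315), and the hairpins differed by -1.21 (adjusted p = 0.0140), or by -0.65 without replicate B of hairpin #1, where the call held. It overlaps ACAT2 and WTAP. SOD1, the cytosolic enzyme, rose with hairpin #1 from 199 ± 10.0 to 259 ± 24 CPM (log2 fold change 0.38, SE 0.11, adjusted p = 0.0116), which was lost without hairpin #1 replicate C (adjusted p = 0.0551).

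SOD3, the secreted enzyme, was at 2.91, 3.19 and 3.73 CPM in the control libraries, 1.36, 1.48 and 1.80 CPM in those with hairpin #1 and 2.0, 4.01 and 6.54 CPM in those with hairpin #3. It was lower in all hairpin #1 libraries than in all others, and spread widely with hairpin #3. The fall with hairpin #1 (log2 fold change -1.08, SE 0.36, adjusted p = 0.0289 by edgeR) was lost without control replicate B/C, or hairpin #1 replicate A/B (adjusted p = 0.0619 to 0.0862), and its neighbours on chromosome 4 had a median of -0.36. The difference between the hairpins (1.45, adjusted p = 0.0168) was lost without hairpin #1 replicate B, or hairpin #3 replicate C (adjusted p = 0.0638 to 0.0865). CAT, catalase, was lower in all hairpin #3 libraries than in all others, at 18.2 ± 0.983 against 28.7 ± 3.09 CPM in control and 30.0 ± 3.05 with hairpin #1 (log2 fold change -0.66, SE 0.12, adjusted p = 0.000675 against control).

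Of the glutathione peroxidases, GPX8, which resides in the endoplasmic reticulum, rose with both hairpins. It was at 56.9, 62.1 and 55.1 CPM in the control libraries, 102, 103 and 86.4 CPM in those with hairpin #1 and 96.5, 91.5 and 83.5 CPM in those with hairpin #3, with all knockdown libraries above all controls, and its log2 fold changes were 0.74 (SE 0.10, edgeR adjusted p = 6.75e-05) and 0.64 (SE 0.10, adjusted p = 0.000250). GPX3, the secreted enzyme, rose with hairpin #3 from 62.0 ± 5.46 to 107 ± 29.0 CPM (log2 fold change 0.79, SE 0.23, adjusted p = 0.0182), which was lost without control replicate A/B, or hairpin #3 replicate B/C (adjusted p = 0.0508 to 0.0864). Between the hairpins it passed without hairpin #1 replicate B, or hairpin #3 replicate A (adjusted p = 0.0239 to 0.0290), and pooled without hairpin #1 replicate A (adjusted p = 0.0333). GPX1 and GPX4, the latter the peroxidase of membrane lipids, were not called in any comparison. Their means were 352 ± 53.1, 311 ± 37.6 and 341 ± 40.9 CPM for GPX1, and 214 ± 42.1, 214 ± 42.3 and 235 ± 63.1 CPM for GPX4. GPX2 had 58 counts over all 9 libraries.

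Among 6 peroxiredoxins, which remove peroxides with electrons from thioredoxin, PRDX1 rose with hairpin #1 and PRDX2 fell with both hairpins. PRDX1 went from 404 ± 11.2 to 554 ± 48.8 CPM (log2 fold change 0.46, SE 0.096, adjusted p = 0.00196 by edgeR) and was at 439.9 ± 15.9 CPM with hairpin #3. The difference between the hairpins (-0.33, adjusted p = 0.0380) was lost without control replicate B/C, hairpin #1 replicate C, or hairpin #3 replicate A/B/C (adjusted p = 0.0562 to 0.155), and the pooled change passed without hairpin #3 replicate C (adjusted p = 0.0424). PRDX2 went from 86.2 ± 11.1 CPM to 58.7 ± 9.47 and 61.6 ± 6.78, with log2 fold changes of -0.55 (adjusted p = 0.00553) and -0.48 (adjusted p = 0.0132), the second lost without control replicate C (adjusted p = 0.0623). It overlaps HOOK2. PRDX6 was lower with hairpin #3 (log2 fold change -0.32, SE 0.10, adjusted p = 0.0271), which was lost without control replicate B/C, or hairpin #3 replicate A/B (adjusted p = 0.0638 to 0.109), and pooled it passed without hairpin #1 replicate C (adjusted p = 0.0260). PRDX3, PRDX4 and PRDX5 were not called in the model without a block. PRDX5 passed with hairpin #1 without control replicate C, hairpin #1 replicate A, or hairpin #3 replicate A (adjusted p = 0.0142 to 0.0492).

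The pentose phosphate enzymes, which yield NADPH and recycle sugars, were lower with hairpin #3 than with hairpin #1. PGD, which makes NADPH, was at 172, 152 and 158 CPM in the control libraries, 186, 182 and 212 CPM in those with hairpin #1 and 135, 115 and 126 CPM in those with hairpin #3, and the 3 groups did not overlap. It was higher with hairpin #1 (log2 fold change 0.27, SE 0.099, adjusted p = 0.0491 by edgeR) and lower with hairpin #3 (log2 fold change -0.36, SE 0.1, adjusted p = 0.0128). The rise sat at the threshold and was lost without control replicate B/C, hairpin #1 replicate A/B/C, or hairpin #3 replicate B/C (adjusted p = 0.0515 to 0.202), and the fall without hairpin #3 replicate B (adjusted p = 0.0708). TALDO1, transaldolase, was at 172, 190.1 and 203 CPM in the control libraries, 194, 235 and 266 CPM in those with hairpin #1 and 118, 128 and 125 CPM in those with hairpin #3. All its hairpin #3 libraries were below all others, it fell with hairpin #3 (log2 fold change -0.61, SE 0.12, adjusted p = 0.00110), and the hairpins differed by -0.91 (adjusted p = 0.000253). Its log2 fold change with hairpin #1 was 0.30 (adjusted p = 0.0588) and passed without hairpin #1 replicate A (adjusted p = 0.00782).

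Of the 17 members lower with hairpin #3 than with hairpin #1, 11 were above control with hairpin #1 and not below it with hairpin #3 (AKR1C1, AKR1C2, AKR1C3, FTH1, FTL, NQO1, OSGIN1, PRDX1, SLC7A11, SOD2 and TXNRD1). Another 5 were below control with hairpin #3 and not called with hairpin #1 (AIFM2, CAT, GCLC, GCLM and TALDO1), and PGD was called in both directions. Their log2 differences ran from -3.13 to -0.33. The 3 members higher with hairpin #3 were GSS, SOD3 and TXNRD2. After the median of 50 neighbouring genes was taken away, 19 of the 20 kept their sign and at least 0.5 of their size, the exception being GSS. Of the 20 calls, 13 held whichever library was left out. The fibroblast markers were also higher with hairpin #3 than with hairpin #1, and their part in these differences was not tested.

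**Figure D3:**
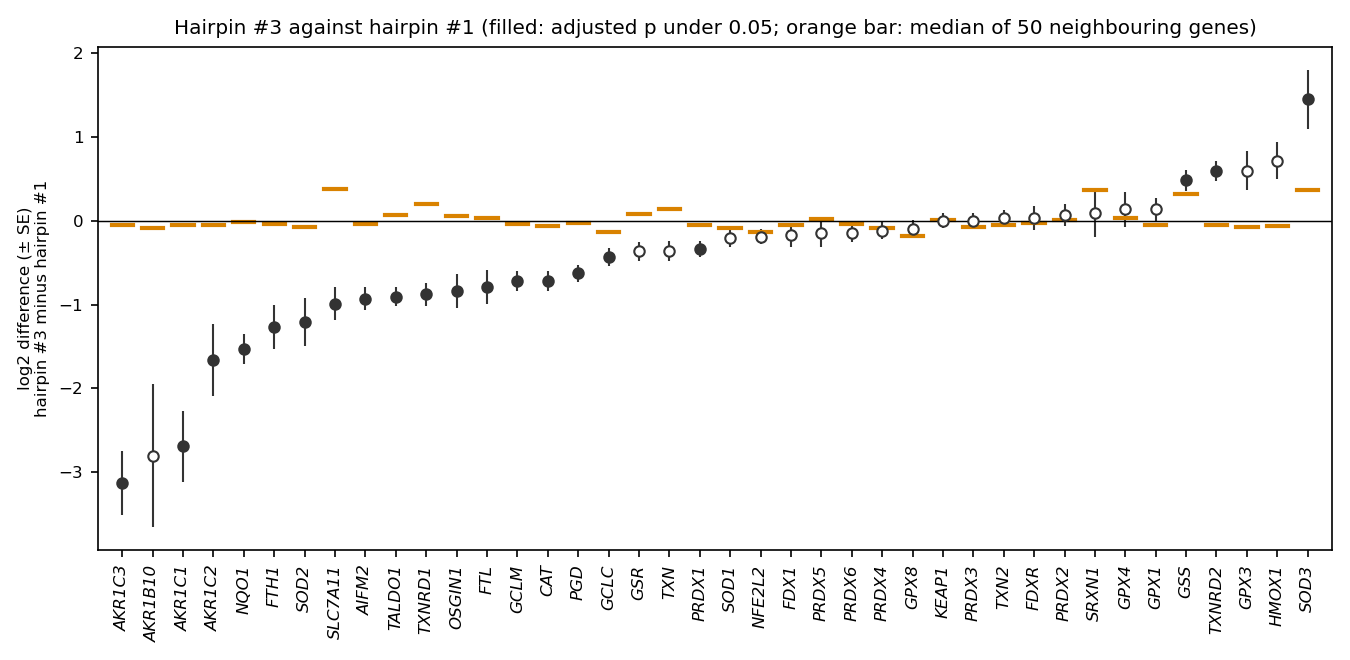
Log2 difference of hairpin #3 minus hairpin #1 (y axis, ± SE) for the 40 tested members in order of size, filled at an adjusted p under 0.05, with the median of the 50 nearest genes on the chromosome as an orange bar. The 17 filled points below 0 lie away from their neighbours' medians, whereas GSS and SOD3 stand over raised medians of 0.32 and 0.37.

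Many NRF2 targets outside the module were also lower with hairpin #3. In a list of 25 other NRF2 targets, 24 were tested, and 13 were lower with hairpin #3 than with hairpin #1, where 5.30% of all tested genes were, and 0 were higher. With hairpin #1, 13 of the 24 were higher than control and 3 lower, where 18.0% and 19.7% of all tested genes were. With hairpin #3, 7 were higher and 9 lower, beside 16.6% and 18.1% of all tested genes. This count between the hairpins was chosen after the values were seen, and it was 11 to 15 when 1 library was left out. ABCC3, an export pump for conjugates, was named after its values were seen. It averaged 16.3 ± 1.92 CPM in the control libraries, 107 ± 53.5 in those of hairpin #1 and 19.5 ± 1.5 in those of hairpin #3 (log2 difference -2.46, SE 0.29, adjusted p = 0.000121 by edgeR between the hairpins).

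The other targets in this group were ABCC1, BLVRB, CBR1, EPHX1, FECH, IDH1, ME1, MGST1, PIR, TKT, TRIM16 and UGT1A6. By pooled fold change, the targets that moved most were UGT1A6, GSTM4 and ABCB6. UGT1A6, a glucuronosyltransferase, fell from 6.76 ± 1.28 CPM to 0.812 ± 0.350 with hairpin #1 and was at no more than 2 counts in any hairpin #3 library. It shares exons with other UGT1A genes, so its count is uncertain. GSTM4, a glutathione transferase, rose with both hairpins, from 0.501 ± 0.194 CPM to 5.80 ± 2.09 and 3.50 ± 1.04 (pooled log2 fold change 3.20, SE 0.43, adjusted p = 0.000118 by edgeR). ABCB6 rose from at most 5 counts per control library to at most 12 in the others (pooled adjusted p = 0.0321). Among 11 NRF2 regulators and partners, 4 were higher and 1 lower in the pooled comparison, where 15.9% of all tested genes were higher and 17.0% lower. NFE2L3, an NRF2 relative, fell from 124 ± 8.68 CPM to 52.9 ± 4.22 and 39.6 ± 3.24 (pooled log2 fold change -1.42, SE 0.13, adjusted p = 6.09e-06). BACH2, a repressor at the same elements, rose from 2.74 ± 0.550 CPM to 7.77 ± 2.22 and 7.35 ± 3.33 (pooled log2 fold change 1.46, SE 0.29, adjusted p = 0.00191). SQSTM1, a KEAP1-binding adaptor and NRF2 target, rose with hairpin #1 from 379 ± 56.6 to 742 ± 134 CPM, was at 498 ± 58.4 CPM with hairpin #3, and differed between the hairpins by -0.58 (adjusted p = 0.0237).

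**Figure D4:**
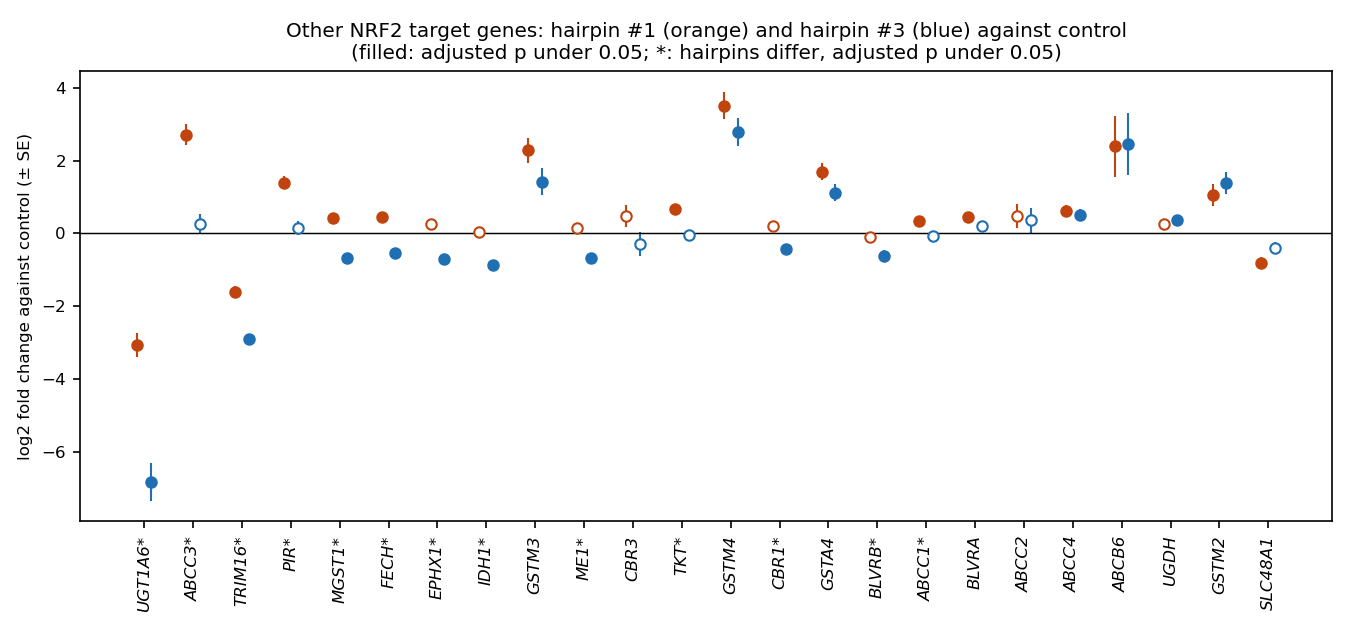
Log2 fold change against the control vector (y axis, ± SE) of 24 other NRF2 target genes with hairpin #1 (orange) and hairpin #3 (blue), filled at an adjusted p under 0.05, with a star where the hairpins differ. The genes are ordered by the difference between the hairpins. All 13 starred genes have the blue point below the orange one.

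Antioxidant response elements contain the core TGACNNNGC, in which N is any base. The core was searched on both strands of the RefSeq promoter windows (GRCh38.p14, 250 bases before to 50 after each start), where 13.3% of 35116 windows held it. A gene was counted when any of its windows held a core, so shares of genes cannot be set against this share of windows. Windows were listed for 31 of the 41 members, and 6 members held a core. These were AIFM2, GCLM, GPX2, KEAP1, PGD and TXNRD1. Of the members lower with hairpin #3 than with hairpin #1, 4 of 14 with a window held one, and of the other tested members 1 of 16. In the other NRF2 targets, 11 of 21 with a window held a core. The member sets were formed from the expression values above, and genes differ in their number of windows. The share over all genes was not computed, so these counts only describe the sequences and do not bear on the hairpin difference. No window of NQO1 held the core within these bases, which says nothing of elements farther away. The elements are shown because TXNRD1, GCLM and AIFM2 are among the members that separated the hairpins, and KEAP1 is a regulator that was not called. Each sequence is written 5′ to 3′ on the strand that holds the core, which is in capitals.
TXNRD1, plus strand, chr12:104215670-104215698: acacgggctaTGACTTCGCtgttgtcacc
GCLM, plus strand, chr1:93909446-93909474: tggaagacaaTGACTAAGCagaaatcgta
AIFM2, plus strand, chr10:70132829-70132857: gggcggggcgTGACTCAGCactcgtgctg
KEAP1, plus strand, chr19:10502784-10502812: caggtcaccaTGACTAAGCagagccgggc
TXNRD1 held 3 cores in its windows and KEAP1 held 2, and 1 of each is shown. In TXNRD1 the core shown lies 99 to 91 bases before 1 of its annotated starts, on the coding strand of the gene. In GCLM it lies 34 to 26 bases before the start, in AIFM2 22 to 14 and in KEAP1 31 to 23. TXNRD1 and AIFM2 changed in different comparisons with control, TXNRD1 up with both hairpins and AIFM2 down with hairpin #3, while KEAP1 was not called. A match to these letters is a description of the sequence only.

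Of 115 tested redox genes outside the module, in 7 lists, 40 changed in the pooled comparison (34.8%), a share close to the 33.0% of all tested genes. In the list of glutathione and glutaredoxin genes, 4 were higher and 5 lower of 23. OPLAH, which acts in the glutathione cycle, fell from 1.59 ± 0.174 CPM in control to no counts with hairpin #1 and at most 3 counts per library with hairpin #3, and it lies on chromosome 8. GSTO2, an omega-class glutathione transferase, fell from 3.95 ± 0.725 CPM to 0.430 ± 0.201 and 0.511 ± 0.196 (pooled log2 fold change -3.05, SE 0.29, adjusted p = 7.4e-06 by edgeR). GGT5 was at most 1 count per control library and at most 13 and 39 with hairpin #1 and hairpin #3.

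In the thioredoxin-fold and methionine sulfoxide reductase list, 1 gene was higher and 3 lower of 21 in the pooled comparison. This was 19.0% of the list, where 33.0% of all tested genes changed. MSRB3, which repairs oxidized methionine, rose from 11.5 ± 2.63 CPM to 94.0 ± 5.27 and 95.5 ± 1.95 (pooled log2 fold change 3.04, SE 0.14, adjusted p = 1.1e-08 by edgeR), with a log2 difference of 0.022 between the hairpins (adjusted p = 0.946). SESN2, a stress-inducible regulator of peroxiredoxin recycling, fell from 42.0 ± 3.00 to 20.9 ± 2.44 and 27.0 ± 1.86 CPM. ERO1A, the oxidase of the endoplasmic reticulum, fell from 104 ± 4.33 to 66.5 ± 4.84 and 57.3 ± 5.56 CPM.

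Around FDXR, 2 of 15 genes of the ferredoxin, iron-sulfur cluster and mitochondrial P450 list were higher and 0 lower in the pooled comparison. This was 13.3% of the list, where 33.0% of all tested genes changed. The higher genes were CYP11A1 and CYP27A1, enzymes that receive electrons from ferredoxin. CYP27A1 rose with hairpin #1 from 0.596 ± 0.395 to 3.69 ± 0.761 CPM and was at 1.16 ± 0.426 CPM with hairpin #3 (log2 difference -1.69, SE 0.37, adjusted p = 0.00999 by edgeR). CYP11A1 had at most 3 counts in any control library and at most 17 in any other. Among oxidases that make reactive oxygen species, 1 of 9 was higher and 4 lower (55.6% changed). AOX1, aldehyde oxidase, rose from 8.56 ± 1.36 CPM to 36.6 ± 13.7 and 87.6 ± 12.2, more with hairpin #3 (log2 difference 1.26, SE 0.22, adjusted p = 0.00224). Among iron handling genes, 2 of 12 were higher and 3 lower (41.7% changed). LCN2, which binds iron-carrying siderophores, fell from 222 ± 125 CPM in control to 0.413 ± 0.358 and 0.786 ± 0.0691. SLC40A1, the iron exporter ferroportin, rose from 5.85 ± 0.801 to 12.2 ± 0.470 CPM with hairpin #1 and 7.87 ± 0.196 with hairpin #3 (pooled log2 fold change 0.78, SE 0.21, adjusted p = 0.0132), and the zinc and iron importer SLC39A8 fell (pooled log2 fold change -0.89, SE 0.14, adjusted p = 0.000346).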

How the data were processed

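RNA of OVCA433 cells was sequenced in 9 libraries, 3 with a control vector, 3 with hairpin #1 and 3 with hairpin #3 against MPZL3. The authors deposited a table of raw counts, with reads summed per gene and neither scaled nor filtered, from poly(A)-selected RNA in non-directional libraries. The submitters' processing notes name HISAT2 2.0.5, featureCounts 1.5.0-p3 and the build hg38. The treatment of reads with several matches is not given in the sources used here.

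Genes were filtered with filterByExpr of edgeR 4.0.16 (minimum count 10, minimum total count 15), which left 15975 of 58676 genes with 99.9% of the counts, and TMM factors were used. The quasi-likelihood test of edgeR (R 4.3.3) was adjusted by Benjamini-Hochberg over all tested genes, at a threshold of 0.05. As in the study, the 6 libraries of both hairpins were set together against the 3 controls. Each hairpin against control, and hairpin #3 against hairpin #1, came from a model with 3 groups. CPM are counts scaled by library total and TMM factor. The neighbour median is the median log2 fold change of the 50 nearest tested genes on the chromosome, each averaging 10 CPM or more.

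The members and gene lists were chosen with earlier results of these data known. All members are reported, and 1 of the listed NRF2 targets outside the module is not reported here and was left out of its list. Values per library are given for members with an adjusted p under 0.05 and a log2 change of 1 or more in size in any comparison, for FDXR, NFE2L2, KEAP1 and NQO1, and for a few others chosen after their values were seen. At most 3 genes of each other list are named by pooled change. The study describes the replicates as biological. Nothing in the labels ties them to separate transductions, so the p-values measure the spread between these samples. Figures were drawn with matplotlib 3.10.9. The pooled fit was tested on simulated data in which both hairpins had the same effect. The comparisons of single hairpins and between the hairpins were not tested in this way. The alternatives were other filters, normalizations, tests, models and thresholds, the replicate letter as a block, and each library left out.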

Additional observations from a re-analysis of the deposited data

Results flagged for a closer look

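A closer look is due where the effects of the 2 hairpins on a member differed, which was tested directly as hairpin #3 against hairpin #1 (adjusted p under 0.05 by edgeR's quasi-likelihood test over all tested genes). The differences below are on the log2 scale, hairpin #3 minus hairpin #1. The larger of the negative ones were AKR1C3 at -3.13, AKR1C1 at -2.69, AKR1C2 at -1.66, NQO1 at -1.53, FTH1 at -1.27, SOD2 at -1.21, SLC7A11 at -0.99, AIFM2 at -0.93, and TALDO1 at -0.91. The smaller negative ones were TXNRD1 at -0.88, OSGIN1 at -0.84, FTL at -0.79, GCLM at -0.72, CAT at -0.72, PGD at -0.63, GCLC at -0.44, and PRDX1 at -0.33. The positive ones were GSS at 0.48, TXNRD2 at 0.60 and SOD3 at 1.45. MPZL3 itself was at -0.25 in this comparison (adjusted p = 0.614). Groups of 3 libraries were too small to be tested for single outlying libraries.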

How the results depend on the processing

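The threshold and the model set the counts of changed members. Apart from the fold threshold, the share of all tested genes called was not computed under the alternatives. A shift in a count of members therefore cannot be told apart from a general rise or fall in calls. In the pooled comparison, where 7 members changed, the count was 3 with a log2 change of at least 1 added, 11 by the DESeq2 Wald test, 12 with the replicate letter as a block, 18 in the 3-group model, and 6 to 11 when 1 library was left out. With hairpin #1 (20 members) it was 13 at an adjusted p under 0.01, 8 with the fold threshold and 15 to 22 without 1 library. With hairpin #3 (17 members) it was 9, 3 and 12 to 17. Between the hairpins (20 members) it was 12, 7 and 14 to 22, and of the 17 lower members 11, 6 and 12 to 18. The other redox genes changed in the pooled comparison numbered 40, 22 with the fold threshold and 32 to 42 without 1 library, and the NRF2 targets that differed between the hairpins 13, 5 and 11 to 15. Filters, size factors and library totals kept these counts within 1.5 times, as did the subtraction of the neighbour median, which was run for the counts of changed members in the 4 comparisons. No member that passed in either fit changed sign under any alternative, and values that passed in neither fit were counted as unchanged whatever their sign. Libraries of the same letter correlated in their deviations from the group mean at 0.037 to 0.361, over 0.1 in 6 of 9 pairs. Those of different letters correlated at -0.322 to 0.132. The labels do not state a pairing, and whether the letters pair the libraries was not settled. The main model left the letters out. The block called 27, 19 and 26 members with hairpin #1, with hairpin #3 and between the hairpins, and it called FDXR pooled (0.29, adjusted p = 0.0209), with hairpin #1 (0.27, adjusted p = 0.0161) and with hairpin #3 (0.31, adjusted p = 0.00698). It called NFE2L2 with hairpin #1 (0.19, adjusted p = 0.0391), and FDX1, PRDX5, PRDX6, SOD1, GCLM, TALDO1, HMOX1, GSR, TXN, GPX3 and AKR1B10 each in at least 1 further comparison. The cause of these shifts was not tested. With 3 libraries per group, small changes of single members were at the limit of detection.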
